A study of Mus musculus with 8 samples.

Results

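Amino acid transporters were examined in kidney tubuloids in which Cre recombinase could be switched on to remove Pkd2, the gene of polycystin-2, which is mutated in polycystic kidney disease. The 10 genes are Slc3a2 and Slc6a9 together with 8 further plasma membrane carriers of amino acids, namely Slc7a1, Slc7a3, Slc7a5, Slc7a11, Slc1a4, Slc1a5, Slc38a1 and Slc38a2. They were taken by gene symbol from 24063 genes in the tables, with all transcripts of a symbol summed. Slc3a2 and Slc6a9 were selected on the doxycycline comparison itself, being on the list of changed genes that the study drew from the same libraries, so their difference between treatments is given as a description without a p-value, and any call or count that includes them supports nothing. The other 8 were chosen for their transport function, with earlier results of these data known.

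Tubuloids are hollow or tubular epithelial structures grown here between layers of Matrigel from tubule fragments of postnatal day 7 to 10 mouse kidney according to the sample labels, although the methods of the study give a somewhat younger age. Every culture, control or treated, carried Pkd2fl/fl, Pax8rtTA, TetOCre and the mTmG reporter. The tubuloid protocol in the methods of the study starts with a pulse of glial-derived neurotrophic factor (GDNF). Its medium also holds hepatocyte, epidermal and basic fibroblast growth factors. Cultures received doxycycline (DOX, n = 4 libraries, numbered 9, 12, 19 and 21) or the vehicle dimethyl sulfoxide (DMSO, n = 4 libraries, numbered 3, 5, 15 and 20) from day 3 of culture for 3 days, and RNA was taken on day 7. The transactivator is driven by the Pax8 promoter, so that DOX induces Cre in renal epithelium and not in accompanying stroma, and recombination in such cultures is incomplete. The comparison asked which transcripts differ soon after Pkd2 is lost. None of the libraries analysed here came from cells given DOX without the Cre alleles, so effects of the drug, of Cre and of Pkd2 loss cannot be told apart.

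Slc3a2 encodes the heavy chain of CD98, a single-pass glycoprotein that carries no amino acid itself but joins 1 of several light chains of the Slc7 family and brings it to the plasma membrane. In the kidney such heterodimers sit mainly in the basolateral membrane of tubule cells, where they return reabsorbed amino acids to the blood by exchange. Most of the other carriers studied here either exchange 1 amino acid for another or use the sodium gradient to accumulate them, and several are known targets of ATF4, a transcription factor made when amino acids run short.

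The upstream sequences of 3 of the genes are shown because the list was built around Slc3a2, and because Slc7a11 and Slc1a4 were the members whose promoter held the letters TGATGNAA, the core of the C/EBP-ATF response element to which ATF4 binds. Each is 260 bases from RefSeq on GRCm38.p6, read 5′ to 3′ on the minus strand, with 250 bases before an annotated start site and the first 10 of the transcript. Slc3a2 is taken from chr19:8713888-8714147, Slc7a11 from chr3:50443604-50443863 and Slc1a4 from chr11:20332704-20332963. Capitals mark TGATGNAA or its reverse complement.
Slc3a2: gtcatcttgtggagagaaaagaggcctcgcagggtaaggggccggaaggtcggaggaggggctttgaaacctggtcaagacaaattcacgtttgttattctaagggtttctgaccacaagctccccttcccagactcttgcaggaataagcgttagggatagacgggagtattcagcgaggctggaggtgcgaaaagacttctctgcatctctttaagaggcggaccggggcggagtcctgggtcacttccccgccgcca
Slc7a11: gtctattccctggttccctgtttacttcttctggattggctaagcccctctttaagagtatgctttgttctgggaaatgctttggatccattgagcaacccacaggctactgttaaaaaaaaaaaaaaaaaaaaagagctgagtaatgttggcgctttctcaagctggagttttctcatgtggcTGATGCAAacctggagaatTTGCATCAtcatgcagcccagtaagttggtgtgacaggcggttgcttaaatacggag
Slc1a4: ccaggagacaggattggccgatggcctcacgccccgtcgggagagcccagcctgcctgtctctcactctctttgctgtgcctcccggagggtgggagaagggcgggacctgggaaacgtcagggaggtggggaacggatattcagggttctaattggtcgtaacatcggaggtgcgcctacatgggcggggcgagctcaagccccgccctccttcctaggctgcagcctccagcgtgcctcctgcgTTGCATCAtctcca

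The Slc7a11 promoter held the letters once on each strand, beginning 66 and 47 bases before the start site, whereas in Slc1a4 they began 4 bases before the start and ran across it. They were not found in the window of Slc3a2. The reference table held 9 promoters of 300 bases for 6 of the 10 genes, and Slc7a3, Slc7a5, Slc1a5 and Slc38a1 had no entry. With both strands searched, TGATGNAA occurred in 3.97% of all 32851 promoters. Counted by gene, it occurred in 2 of the 6 matched transporter genes and in 7 of 21 matched genes of a list of ATF4 targets. These units differ, as a gene with several promoters counted if any of them held the letters. A further motif, TGACNNNGC, the core of the antioxidant response element bound by NRF2, shares only its first letters with TGATGNAA and so never starts at the same base of the same strand. It occurred in 12.4% of all promoters and, counted by gene in the same way, in Slc6a9, Slc7a1 and Slc38a2. These matches describe letters and not binding.

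Libraries held 63922677 to 102716313 summed transcript counts. Fewer genes were detected in DMSO 20 (13243) and DOX 19 (13599) than in the other 6 libraries (17054 to 17903). DMSO 15 and DOX 21 came from male tissue by Xist and Y-linked transcripts. Pkd2, the targeted gene, had 24.4 to 37.1 TPM (a level corrected for transcript length and library total) in DMSO and 19.0 to 28.2 in DOX libraries, with overlapping ranges. All 8 markers of tubule epithelium were detected in every library, with a summed level of 560 to 2628 TPM in DMSO and 779 to 1742 in DOX. Proximal tubule markers summed to 5.54 to 23.7 TPM in DMSO and 7.48 to 14.9 in DOX, most of it Slc5a2, while Lrp2 and Cubn were at or near 0. Since whole cultures were sequenced, fewer cells of a type and less RNA per cell cannot be told apart.

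Slc3a2 (chr19:8706882-8723369, GRCm38.p6) was higher in each DOX library than in each DMSO library. In DMSO cultures 3, 5, 15 and 20 it had 24914, 20618, 22247 and 21082 normalised counts, that is, counts divided by a size factor for library depth. In DOX cultures 9, 12, 19 and 21 it had 51058, 36792, 31157 and 39940. The DMSO libraries lay close together, while DOX 9 stood above the other DOX libraries. Group means were 22215 ± 1925 and 39737 ± 8377 (SD, n = 4 each), which differ by 0.84 on the log2 scale (SE 0.203). Leaving out 1 library at a time moved it between 0.69, without DOX 9, and 0.95, without DOX 19.

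The light chains that pair with Slc3a2 differed less uniformly between the groups. Slc7a5 (LAT1, chr8:121881146-121907686), which exchanges large neutral amino acids such as leucine, had 6266, 3261, 11296 and 7233 normalised counts in DMSO 3, 5, 15 and 20. In DOX 9, 12, 19 and 21 it had 16050.5, 10376, 12137 and 14423.5. Only DMSO 15 reached into the DOX range, above DOX 12. The log2 fold change was 0.92 (SE 0.394), with an unadjusted p of 0.02 and, over all genes, an adjusted p of 0.807 in DESeq2. Without DMSO 15 it was 1.25 and the adjusted p 0.0488 in DESeq2, where the alternatives tried ranged from 0.0488 to 0.9999.

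Slc7a11 (xCT, chr3:50364936-50499087) imports cystine in exchange for glutamate and feeds glutathione synthesis. It had 442, 557, 731 and 2899 normalised counts in DMSO 3, 5, 15 and 20, and 1621, 779, 1580 and 816 in DOX 9, 12, 19 and 21. DMSO 20 was the highest of all 8 libraries, and the other DMSO libraries lay below each DOX library. The log2 fold change was 0.05 (SE 0.66, adjusted p = 0.999 in DESeq2), with a range from -0.22 without DMSO 3 to 1.05 without DMSO 20. For this gene the direction therefore rested on single libraries.

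The other partners of Slc3a2 did not pass the test either. Slc7a6 and Slc7a7, which exchange cationic for neutral amino acids, had log2 fold changes of 0.41 (SE 0.211) and 0.76 (SE 0.421), with adjusted p-values of 0.945 and 0.999 in DESeq2, and their groups overlapped. Slc7a8 (LAT2) was measured at 0 to 999 normalised counts in DMSO and 35.0 to 2169 in DOX, and Slc7a10, a carrier of small neutral amino acids, at 0 to 88.7 and 25.9 to 140. Both were at 0 in DMSO 20 and lowest of their group in DOX 19, the libraries with few detected genes.

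To set heavy and light chains side by side, levels per length were taken from the deposited TPM of 1 transcript per gene, since reads shared by isoforms were counted for each of them. Slc3a2 then had 103, 108, 91.1 and 106 TPM in DMSO 3, 5, 15 and 20 and 238, 207, 142 and 187 TPM in DOX 9, 12, 19 and 21. The 6 light chains summed to 83.4, 71.0, 93.2 and 103 TPM in the DMSO and 163, 166, 132 and 188 TPM in the DOX libraries. Each DOX library lay above each DMSO library in both measures, and the ratio of heavy to light chain was 1.19 ± 0.248 in DMSO and 1.19 ± 0.205 in DOX (SD, n = 4 each). Slc7a5 made up 51.2% ± 15.8 of the light chain TPM in DMSO and 58.0% ± 7.37 in DOX. Slc7a7 took 22.7% ± 8.61 and 21.2% ± 5.999, and Slc7a6 18.9% ± 5.52 and 14.2% ± 4.67. Slc7a11 was a small part, with 3.29% ± 3.07 in DMSO and 2.05% ± 0.899 in DOX. As Slc3a2 was selected on this comparison, these sums and ratios are a description without a test.

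**Figure D1:**
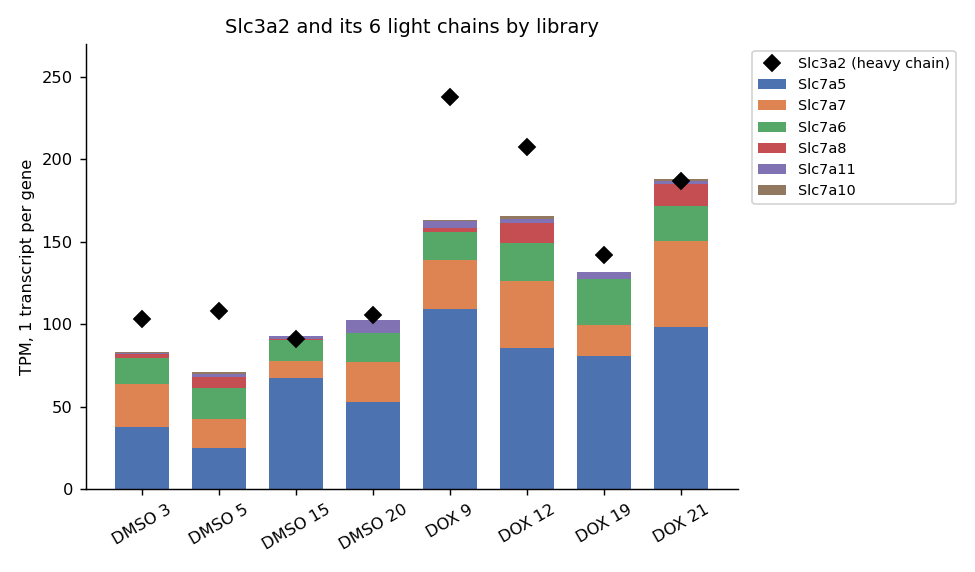
TPM of 1 transcript per gene (vertical axis) in the 4 DMSO and 4 DOX libraries, with the 6 light chains stacked as bars and Slc3a2 as a diamond. Slc7a5 is the largest bar segment in every library, and the diamond lies near or above the top of its bar, from 0.978 to 1.52 times the summed light chains in DMSO and 0.994 to 1.46 times in DOX.

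Slc6a9 (GlyT1, chr4:117835258-117869305), a sodium- and chloride-coupled glycine transporter, was also higher in each DOX library. It had 1250, 1447, 1682 and 2177 normalised counts in DMSO 3, 5, 15 and 20, and 4529, 2657, 8580 and 3744 in DOX 9, 12, 19 and 21. DOX 19 was far above the next library, and DOX 12 lay closest to the DMSO range. Group means were 1639 ± 400 and 4878 ± 2585 (SD, n = 4 each), which differ by 1.57 on the log2 scale (SE 0.413) and by 1.16 without DOX 19.

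The cationic carriers take up arginine and lysine. Slc7a1 (CAT1, chr5:148327410-148399904) had 1416, 1263, 1697 and 1621 normalised counts in DMSO 3, 5, 15 and 20 and 3195, 1975, 2050 and 1832 in DOX 9, 12, 19 and 21. The groups did not overlap, but the gap between the highest DMSO and the lowest DOX library was small and DOX 9 stood well above the rest. The log2 fold change was 0.59 (SE 0.254, unadjusted p = 0.0195, adjusted p = 0.797 in DESeq2), and 0.38 without DOX 9.

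Slc7a3 (CAT3, chrX:101079146-101090452) was the most uneven of the 10 genes. It had 280.1, 112, 479.6 and 0 normalised counts in DMSO 3, 5, 15 and 20, the 0 allowing up to 3 counts in that library, and 5918, 1023, 33.8 and 826 in DOX 9, 12, 19 and 21. Both low values came from the libraries with few detected genes, and DOX 9 was far above the other libraries. The log2 fold change was 3.16 (SE 1.47, unadjusted p = 0.0318, adjusted p = 0.868 in DESeq2), and 1.53 without DOX 9. Without DMSO 20 and DOX 19 it was 3.17 with an adjusted p of 0.0435 in DESeq2, where the alternatives tried ranged from 0.0435 to 0.9999.

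The exchangers Slc1a4 (ASCT1, chr11:20302180-20332713) and Slc1a5 (ASCT2, chr7:16781334-16798274) carry alanine, serine and cysteine, and Slc1a5 also glutamine. Slc1a4 had 1803, 1313, 1623 and 476 normalised counts in DMSO 3, 5, 15 and 20 and 4554, 2101, 1411 and 2246 in DOX 9, 12, 19 and 21. DOX 19 lay within the DMSO range and the other DOX libraries above it, with a log2 fold change of 0.98 (SE 0.522, adjusted p = 0.976 in DESeq2) that was 0.56 without DOX 9. Slc1a5 had 3670, 6327, 3415 and 2538 in DMSO and 8254, 5735, 4325 and 4140 in DOX, so that DMSO 5 exceeded each DOX library but DOX 9. Its log2 fold change was 0.49 (SE 0.381, adjusted p = 0.999 in DESeq2), with 0.25 without DOX 9 and 0.81 without DMSO 5.

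Slc38a1 and Slc38a2 are neighbours on chromosome 15 (chr15:96571418-96643438 and chr15:96687392-96699728) and encode the sodium-coupled glutamine and alanine carriers SNAT1 and SNAT2. Slc38a1 had 9191, 7459, 7710 and 7297 normalised counts in DMSO 3, 5, 15 and 20 and 15328, 8305, 9194 and 7092 in DOX 9, 12, 19 and 21. Apart from DOX 9 the libraries of both groups covered the same range, and the log2 fold change of 0.33 (SE 0.291, adjusted p = 0.999 in DESeq2) was 0.05 without that library. Slc38a2 had 16097, 14902, 13116 and 26528 in DMSO and 17985, 14957, 21815 and 18334 in DOX, with DMSO 20 highest. Its log2 fold change was 0.05 (SE 0.287, adjusted p = 0.999 in DESeq2), and its sign changed with the library left out.

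**Figure D2:**
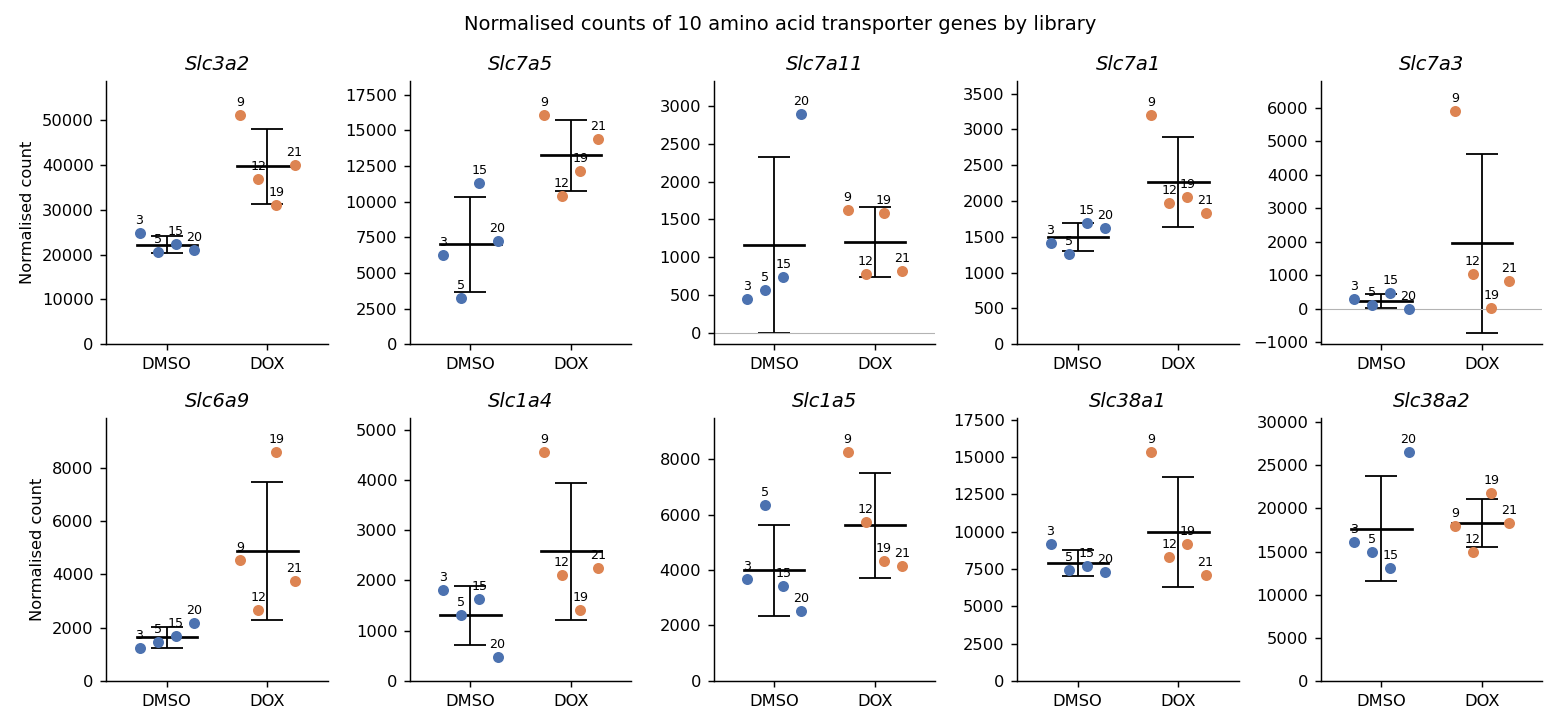
Normalised counts (vertical axis, linear) of each gene in the DMSO and DOX libraries, each point marked with its library number, with the mean as a line and the SD as a bar (n = 4 each). The groups separate for Slc3a2, Slc7a1 and Slc6a9, and library 9 is the highest DOX point in 8 of 10 panels.

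Single libraries shaped these values. DOX 9 was the highest DOX library for 8 of the 10 genes, the exceptions being Slc6a9 and Slc38a2, where DOX 19 was highest. The libraries with few detected genes, DMSO 20 and DOX 19, were each the lowest of their group for Slc7a3 and Slc1a4 and the highest for Slc6a9 and Slc38a2. Without both, the log2 fold changes were 0.94 for Slc3a2, 1.34 for Slc6a9, 0.70 for Slc7a1, 0.98 for Slc7a5, 0.91 for Slc7a11, 0.93 for Slc1a4, 0.46 for Slc1a5, 0.36 for Slc38a1 and 0.24 for Slc38a2. Only Slc7a11 and Slc38a2 moved by more than 1.5 times, from 0.05 each.

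**Figure D3:**
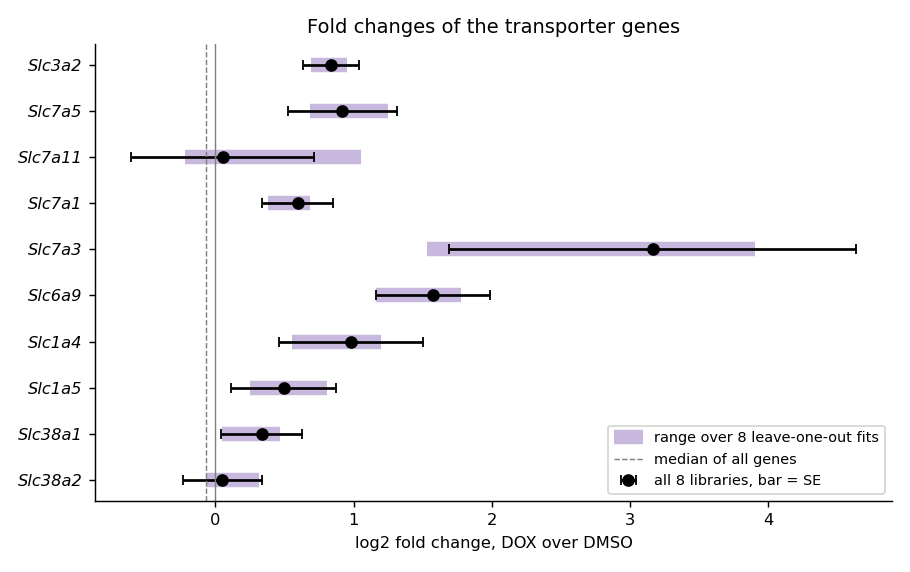
Log2 fold change of DOX over DMSO (horizontal axis) for each gene, with its SE as a bar around the point and the range over the 8 fits that each left out 1 library as a band. The bands of Slc7a11 and Slc38a2 cross 0, and the other bands stay above it, Slc38a1 only just at 0.05.

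DESeq2 called 1 of the 10 genes (adjusted p no higher than 0.05 with a change of 1.5-fold or more), namely Slc3a2, where 0.147% of 17011 genes were called. At an unadjusted p under 0.05, 5 of the 10, the 2 selected genes included, were higher with DOX and 0 lower, where 2.2% of all genes with a p were higher. For 3 of the 10, Slc3a2, Slc6a9 and Slc7a1, each DOX library lay above each DMSO library, where this held for 1.66% of all genes. Slc3a2 was no longer called without DMSO 3, DMSO 5, DMSO 20, DOX 12 or DOX 21, with both male libraries out, or with at least 10 counts required in every library. As Slc3a2 and Slc6a9 were selected on this contrast and the rest with its results known, nothing is read from these counts. Of the 8 genes not selected on it, DESeq2 called 0, with 3 higher at an unadjusted p under 0.05 (Slc7a1, Slc7a3 and Slc7a5), and edgeR called 0, with 1 at an unadjusted p under 0.05 (Slc7a5). The quasi-likelihood test of edgeR called 0 of the 10 and 0% of 15562 genes, and at an unadjusted p under 0.05 found 3 of the 10 higher, where 1.56% of all genes were. Of these 8 unselected genes, 8 had a log2 fold change above 0, with a median of 0.54, where 44.4% of all genes were above 0 and the median was -0.07. Without DOX 9 the median of the 8 was 0.31, with 7 above 0. It was 0.60 without DMSO 5 and 0.55 without DMSO 15, with 6 of the 8 above 0 each time. Without DOX 19, 5 of 7 were above 0, as Slc7a3 (3.58) had no adjusted p and was not counted.

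Expression per length, compared within each library, spanned a wide range. Over all 8 libraries Slc3a2 had the highest mean level (282 TPM summed over transcripts, 148 for 1 transcript), followed by Slc38a2 (94.9), Slc7a5 (69.7), Slc1a5 (43.1), Slc38a1 (29.6), Slc6a9 (24.2), Slc1a4 (12.0), Slc7a3 (11.1), Slc7a1 (6.39) and Slc7a11 (3.14). Neighbours in this order were compared by exact two-sided sign-flip permutation tests of log2(TPM + 1) over 8 libraries, with 0.0078125 as the smallest p possible. Pairs with Slc3a2 or Slc6a9 are described without a p, since the levels pool the DOX libraries on which these genes were selected. Slc3a2 exceeded Slc38a2 in 8 of 8 libraries (mean log2 difference 1.52 ± 0.574 SD), and with 1 transcript per gene, which does not count shared reads for both Slc3a2 isoforms, in 7 of 8 (0.59 ± 0.572), Slc38a2 being higher in DMSO 20. Slc6a9 exceeded Slc1a4 in 7 of 8 libraries (0.88 ± 1.03). Of the 6 remaining pairs, Slc7a1 exceeded Slc7a11 in 7 of 8 libraries (0.95 ± 0.599, exact test, adjusted p = 0.0469 over all 9 pairs). Adjusted over these 6 pairs alone, its p was 0.0703 in the exact test and 0 pairs passed. The other 5 pairs did not pass under either adjustment, so their order is not separated from the spread between libraries. Slc7a3 ranked above Slc7a1 by mean TPM over all 8 libraries only through DOX 9. It was the higher of the pair in 3 of 8 libraries, namely DOX 9, DOX 12 and DOX 21. In each DMSO library and in DOX 19 it was the lower. With 1 transcript per gene, Slc38a1 (9.51 TPM) moved below Slc7a3 by mean TPM. Slc7a3 was the higher of these only in DOX 9, DOX 12 and DOX 21, 3 of 8 libraries. Slc38a1 exceeded Slc7a1 in 8 of 8 libraries (mean log2 difference 0.52 ± 0.216 SD). That pair and Slc7a1 over Slc7a11 then passed the exact test when adjusted over the 6 pairs (adjusted p = 0.0469 for both), and the other genes kept their order by mean TPM. The order pools groups that differ in some of the genes. Within a group some pairs changed places by mean TPM. Slc7a3 was below Slc7a1 in each DMSO library, with group means of 2.01 and 4.93 TPM, and above it by mean in DOX, with 20.2 and 7.85. On the summed scale the other pairs given here changed places through 1 library each. In DMSO libraries Slc7a3 (2.01 ± 1.82 TPM) was below Slc7a11 (3.09 ± 3.32), but in only 2 of 4, and without DMSO 20 the means were 2.68 for Slc7a3 and 1.44 for Slc7a11. In DOX libraries Slc6a9 (36.3 ± 17.1 TPM) was above Slc38a1 (33.8 ± 11.5, summed over transcripts) in 2 of 4, and without DOX 19 Slc38a1 had the higher mean (35.3). That sum counts shared reads for each Slc38a1 isoform. With 1 transcript per gene Slc6a9 was above Slc38a1 in each DOX library, with means of 36.3 and 10.8 TPM. In DMSO the means were then 12.0 for Slc6a9 and 8.18 for Slc38a1, with Slc6a9 lower only in DMSO 3. The order of this pair thus depended on isoform handling. In DOX libraries Slc7a3 (20.2 ± 26.8 TPM) was above Slc1a4 (16.3 ± 8.20) in DOX 9 alone, without which the means were 7.06 and 12.5. These pairs were not tested within a group, where 4 libraries allow an exact p of 0.125 at the smallest.

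**Figure D4:**
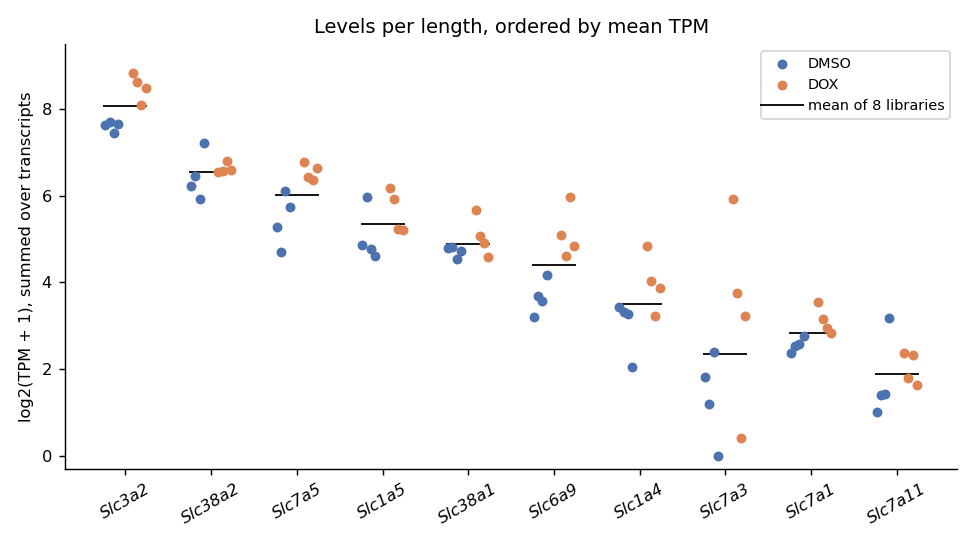
Levels of the 10 genes as log2(TPM + 1), summed over transcripts, ordered by mean TPM, with 1 point per library and the mean of 8 libraries as a bar. On this summed scale Slc3a2 lies above the other genes in every library, and Slc7a3 spreads from 0 TPM in DMSO 20 to 59.8 TPM in DOX 9.

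Across the 8 libraries the genes whose pattern was most like that of Slc3a2 were Uap1l1 (Pearson r = 0.979), Tpp1 (0.975), Cdipt (0.954), Mmp11 (0.950) and Nupl2 (0.945), out of 13248 genes with a mean of at least 100 normalised counts. Among the transporters the correlation with Slc3a2 was 0.857 for Slc7a1, 0.793 for Slc1a4 and 0.762 for Slc7a5, and it was 0.169 for Slc7a11 and 0.037 for Slc38a2. Slc6a9 was most like Lemd2 (0.957), Snrpn (0.955), Snurf (0.955), Lzts2 (0.953) and Eif3a (0.950). Among the transporters its correlation was 0.710 with Slc7a1, 0.691 with Slc7a5 and 0.653 with Slc3a2, and it was lowest with Slc7a3, at 0.083. Snrpn and Snurf share a transcript, so reads could be counted for both. These correlations describe 8 libraries that also share the treatment, and carry no test.

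Other amino acid transporters were taken as a list of 41 genes, of which 38 had counts and 32 an adjusted p. DESeq2 called 1, where 0.147% of all genes were called. It was Slc1a3, a glutamate and aspartate carrier, which had 118, 282, 326 and 245 normalised counts in DMSO 3, 5, 15 and 20 and 1415, 382, 837 and 1615 in DOX 9, 12, 19 and 21. Its groups did not overlap, and the log2 fold change was 2.13 (SE 0.536, adjusted p = 0.0459 in DESeq2, edgeR adjusted p = 0.999). This call was narrow, since with 1 library left out the log2 fold change stayed between 1.86 and 2.41 but the adjusted p in DESeq2 ran from 0.000596 without DOX 12 to 0.276 without DOX 9, and it passed only without DOX 12 or DMSO 15. Slc38a7, a glutamine carrier of lysosomes, was the only other one with an unadjusted p under 0.05, at a log2 fold change of 1.06 (SE 0.305, adjusted p = 0.15 in DESeq2). Both were higher with DOX, as were 2.2% of all genes at that threshold. The log2 fold change was above 0 for 21 of the 32 and below for 11, where 44.4% of all genes were above 0, and its median was 0.24, against -0.07 over all genes. Their median was 0.45 without DOX 9, 0.08 without DMSO 15 and 0.14 without the male libraries DMSO 15 and DOX 21, where that of the 8 unselected transporters was 0.31, 0.55 and 0.65. The lowest library of all was DMSO 20 for 22 of the 38 genes, DOX 19 for 19 and DMSO 15 for 15, ties at 0 included.

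Known genes of the amino acid response were taken as a list of 24, all with counts and 23 with an adjusted p, Ddit3 having been set aside by the Cook's distance filter. DESeq2 and edgeR each called 0, with 7 at an unadjusted p under 0.05 in each test, all higher with DOX, where 2.2% of all genes were by DESeq2 and 1.56% by edgeR. In DESeq2 the 7 became 3 higher and 1 lower without DOX 9, 18 higher without DMSO 15, and 15 higher without the male libraries. The counts over all genes with an adjusted p moved as well. With all libraries 423 were higher and 476 lower of 17011, and without DOX 9 it was 349 and 428 of 16527. Without DMSO 15 it was 593 and 577 of 13039, and without the male libraries 553 and 541 of 12976. With all libraries, the 7 were led in DESeq2 by Trib3, a pseudokinase that restrains ATF4 (log2 fold change 2.56, SE 0.751, adjusted p = 0.182), and Asns, asparagine synthetase (1.39, SE 0.446, adjusted p = 0.28). Gpt2, Chac1, Mthfd2 and Aldh18a1, enzymes of alanine, glutathione, folate and proline metabolism, followed with log2 fold changes of 1.53, 1.51, 1.13 and 0.94. The log2 fold change was above 0 for 21 of 23, with a median of 0.71, where 44.4% of all genes were above 0 with a median of -0.07. DOX 9 was the highest of all 8 libraries for 20 of the 24, and without it the median was 0.45. DMSO 15 was the highest DMSO library for 21 of the 24, and without it the median was 1.19. Atf4 itself, named after its values were seen, had 15191 to 22358 normalised counts in DMSO and 19565 to 42738 in DOX, again highest in DOX 9. Any link between this response and the transporter levels was not tested.

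**Figure D5:**
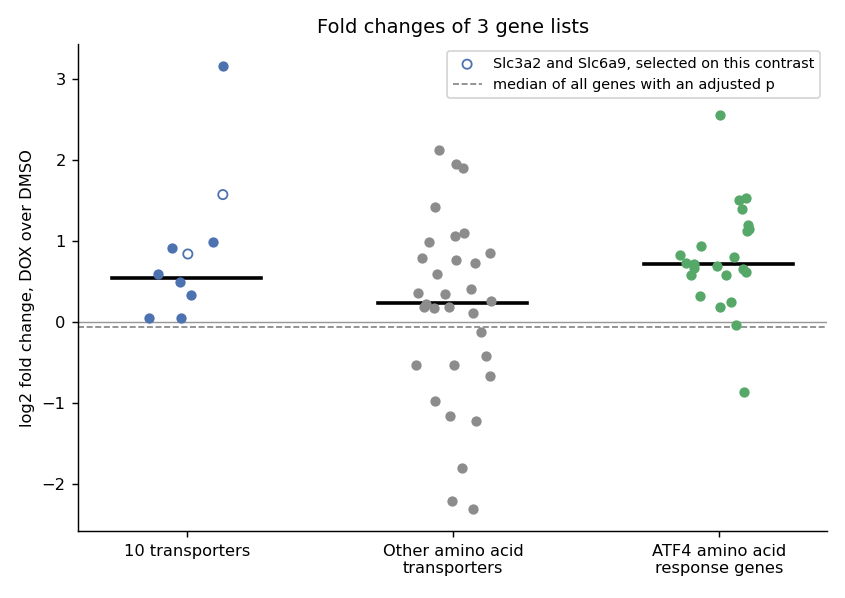
Log2 fold changes of DOX over DMSO (vertical axis) for the 10 transporters, 32 other amino acid transporters and 23 ATF4 amino acid response genes with an adjusted p, 1 point per gene, with the list median as a black line and the median of all genes dashed. Slc3a2 and Slc6a9, selected on this contrast, are open points and are left out of the median. The medians are 0.54, 0.24 and 0.71, against -0.07 for all genes.

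Markers of other cells were measured beside these results. Stromal markers (8 genes) summed to 301 to 3827 TPM in DMSO and 644 to 1030 in DOX, the highest value being DMSO 15, and Dcn and Lum were at 0 in some libraries. Endothelial markers (5 genes) summed to 22.7 to 64.7 TPM in DMSO and 29.0 to 161 in DOX, nearly all of it Emcn, whereas Pecam1 and Cdh5 stayed below 1 TPM. Macrophage markers (4 genes found) summed to 6.20 to 28.7 TPM in DMSO and 0.0068 to 10.9 in DOX, with C1qa at 0 in all libraries but DMSO 15. The summed levels of all these lists overlapped between the groups, and DESeq2 called 0 of their genes, with 1 at an unadjusted p under 0.05 among the stromal ones. Log2 fold changes were above 0 for 0 of 8 epithelial, 4 of 6 proximal tubule, 1 of 8 stromal, 3 of 5 endothelial and 0 of 4 macrophage markers, where 44.4% of all genes were above 0. Their part in the transporter values was not tested.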

How the data were processed

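RNA of 8 tubuloid cultures was sequenced from poly-A selected SMART-Seq v4 libraries. The authors aligned reads to mm10 with STAR and counted them with featureCounts, whose versions and settings are not given in the sources used here. The deposited files give whole-number counts per RefSeq transcript, with FPKM and TPM computed by the authors. FPKM were not used. Counts and TPM were summed by symbol, and reads shared by isoforms are counted for each isoform (the 2 Slc3a2 transcripts differed by at most 1.10%, the 3 of Slc38a1 by at most 5.07%).

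DOX was compared with DMSO by DESeq2 1.42.0 in R 4.3.3 (Wald test over all genes, Benjamini-Hochberg adjustment, alpha 0.1 for independent filtering) and by edgeR 4.0.16, both tested on simulated data. Labels do not say whether cultures came from separate animals, so p-values measure the spread between these cultures. Replicate numbers were not shared between groups, so no pairing was used. Intervals from a count of 0 cover counting error only. Promoters and gene positions are those of RefSeq on GRCm38.p6, the assembly of mm10.

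All 10 members, the partners of Slc3a2, the called genes and up to 6 genes with the smallest unadjusted p under 0.05 of each list were named. Members and lists were chosen with earlier results of these data known. Alternatives covered the test, scaling, low-count filter, Cook's filter, isoform handling, threshold and left-out libraries.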

Additional observations from a re-analysis of the deposited data

How the results depend on the processing

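The number of the 10 transporters called by DESeq2 (1, Slc3a2) was 0 in edgeR, 2 with the Cook's distance filter off, with 1 transcript per gene or at an adjusted p of at most 0.1, 3 without DMSO 20 and DOX 19, and 0 without the male libraries DMSO 15 and DOX 21. Leaving out 1 library gave 0 to 2. It was 0 without DMSO 3, DMSO 5 or DOX 21, and 2 without DMSO 15 (Slc3a2 and Slc7a5), while without DMSO 20 or DOX 12, and with at least 10 counts in every library, the called gene was Slc6a9 in place of Slc3a2. Of the other transporters (1, Slc1a3), 0 were called in edgeR, with TMM size factors, and without the low-detection or the male libraries, and 0 to 1 with 1 library left out, Slc1a3 being called only without DMSO 15 or DOX 12. Of the ATF4 list (0), 4 were called without the male libraries (Asns, Mthfd2, Aldh18a1 and Eif4ebp1), and 0 to 3 with 1 library left out, the 3 being Asns, Mthfd2 and Eif4ebp1 without DMSO 15. Over all genes the calls ran from 0 in edgeR to 76 of 12976 without the male libraries, against 25 of 17011 in the main fit. They were 48 with the Cook's distance filter off, 28 with 1 transcript per gene and 40 at an adjusted p of at most 0.1. Without DMSO 20 and DOX 19 they were 51 of 17252. With 1 library left out they ran from 14 without DMSO 3 to 75 of 13039 without DMSO 15. Of 159 values for the 10 fold changes under alternatives, 134 kept their direction and side of the call rule (for log2(TPM + 1), which has no test, a value within 1 SD between replicates), 8 lost the call (all of Slc3a2), 8 gained it (6 of Slc6a9, with Slc7a3 without DMSO 20 and DOX 19 and Slc7a5 without DMSO 15) and 9 changed sign, Slc7a3 having no value with the filter of at least 10 counts. The sign changes were in Slc7a11 (-0.22 to 1.05) and Slc38a2 (-0.067 to 0.31) with 1 library left out, and Slc38a2 without the male libraries (-0.065). Of 9 neighbouring pairs in the order of levels, 3 passed the exact test, 3 with 1 transcript per gene (Slc38a1 over Slc7a1 in place of Slc3a2 over Slc38a2), 0 with log2(TPM + 0.1) and 0 without DMSO 20 and DOX 19. Of the 3, 2 include Slc3a2 or Slc6a9 and support nothing, and adjusted over the 6 pairs without these genes, a setting chosen after the data were seen, 0 passed, or 2 with 1 transcript per gene. With 1 library left out, a setting chosen after the data were seen, 0 to 3 passed. With 6 or 7 libraries the smallest possible p is 0.03125 or 0.015625, which leaves little room after adjustment. The cause of these changes was not tested. Spread between 4 cultures per group, with an SD above the mean for Slc7a3 in the DOX and for Slc7a11 in the DMSO libraries, limits these comparisons.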
